A study of Mus musculus with 2 samples.

Results

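The pericentromeric edges are the first assembled 200 kb of mouse autosomes 1 to 19, from position 3000001 to 3200000 of each chromosome on build mm8. They were chosen by position alone and cut into 400 tiles of 500 bp each, which gave 7600 tiles out of 5141441 on chromosomes 1 to 19, X and Y. Mouse chromosomes carry their centromere at 1 end, and coordinates are counted from that end. The first 3 Mb of each mouse reference chromosome stand for the unsequenced centromere and its satellite arrays, so these tiles are the first sequence past that gap. TBP, the TATA-binding protein, binds core promoters and takes part in transcription by all nuclear RNA polymerases. Sequence beside centromeres is known for satellite and other repeats and for segments copied between chromosomes, so a short read from it can match many places or none in an assembly.

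Chromatin was immunoprecipitated with the Abcam antibody AB818 against TBP and sequenced (ChIP-seq), from mouse embryonic stem cells of the line V6.5, whose background is C57BL/6-129. The series holds 2 libraries of 1 group with no further genotype or treatment. For B2 (replicate 1) the cells had been off feeder fibroblasts for 2 passages, the gel slice was 150 to 350 bp and reads were 36 bases long. For B6 (replicate 2) the cells had been off feeders for 1 passage, the slice was 150 to 300 bp and reads were 26 bases long. Both were amplified with 18 PCR cycles from chromatin of a mean sheared size of 500 bp. Whether the cultures were separate is not given in the labels, so the comparisons measure only the spread between these libraries, which may be technical. Depth, read length, passages and gel slice all differ between B2 and B6 and cannot be told apart. No library without the antibody was analysed, so enrichment by the antibody was not measured apart from other repeatable pile-ups of reads.

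Reads were reduced to 1 per position and strand, called distinct reads, and reads with 1 alignment were kept apart from reads with 2. With 1 alignment, 15887305 distinct reads of B2 and 2856259 of B6 lay on the nuclear chromosomes, a mean of 3.51 and 0.630 per tested tile. A tile was tested where its 1-kb bin held any read of the same class in either library. RPM below is distinct reads per 1000000 of those totals.

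The edges were sparser than the rest of the autosomes, and some of them were far more piled up. Of the 7600 tiles, 4038 (53.1%) were tested, against 89.7% of the tiles in the rest of the autosomes and 74.5% in the next 200 kb. Tiles without a distinct read made up 59.7% of the edges in B2 (Wilson 95% interval 58.6 to 60.8) and 83.8% in B6 (82.9 to 84.6), against 19.4% and 65.5% in the rest. The edges held 26958 distinct reads of 40441 in B2 and 5964 of 7926 in B6. Repeated reads at a position already counted, called duplicates here, were thus 33.3% in B2 (32.9 to 33.8) and 24.8% in B6 (23.8 to 25.7). In the rest of the autosomes they were 5.56% and 7.82%, and in the next 200 kb 6.62% and 8.05%. The median edge, at 5.28% in B2 and 7.69% in B6, was no higher than the rest, and single edges reached up to 72.8% and 49.6%. These intervals cover counting error only, because amplified copies of 1 fragment cannot be told from separate fragments.

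Reads began at the gap on some chromosomes and far inside on others. No read with 1 alignment was listed before position 3000001 on any autosome. The lowest position listed with 1 alignment was 3000001 on chromosome 9, 3000015 on chromosome 5, 3000036 on chromosome 18 and 3000188 on chromosome 11. At the other end of the range it was 3068181 on chromosome 14 and 3083354 on chromosome 19. Reads with 2 alignments began nearer the gap on these last 2 chromosomes, at 3021337 and 3009537. The first tile held reads on 6 chromosomes in B2 and on 5 in B6, 507 and 271 distinct reads in all.

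**Figure D1:**
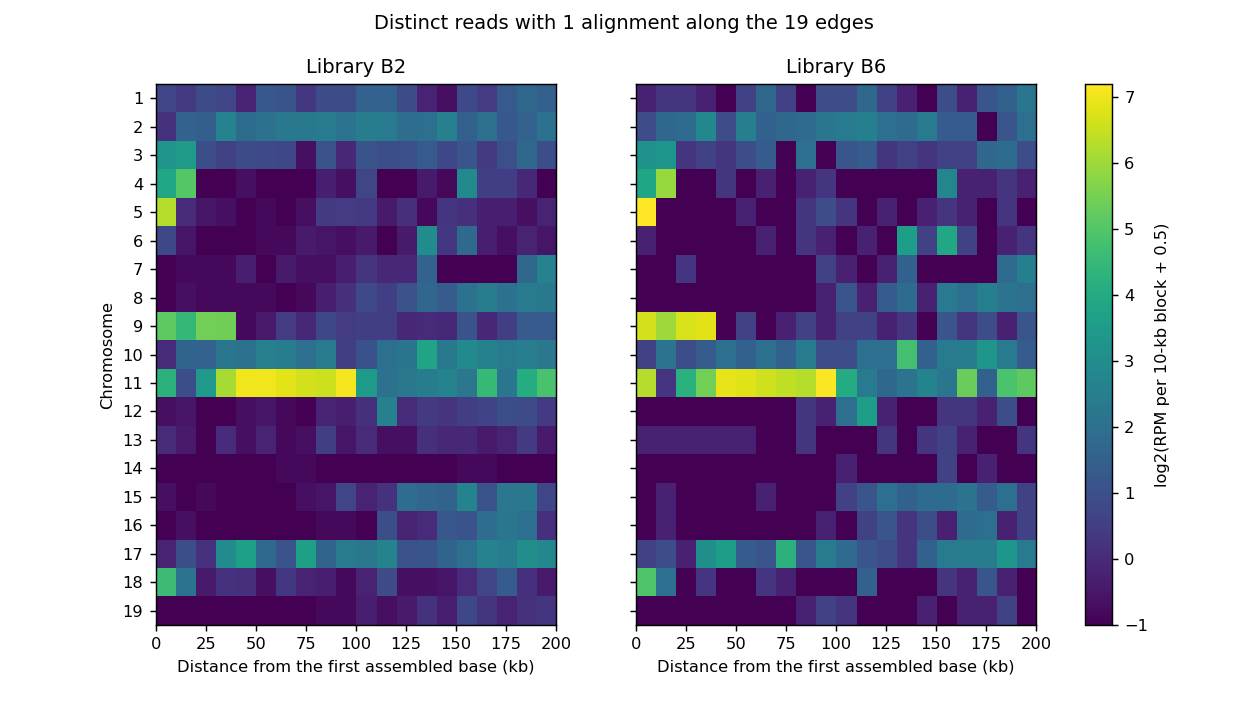
Distinct reads with 1 alignment in 10-kb blocks of the 19 edges, as log2 of RPM plus 0.5, against the distance from the first assembled base in kb, for B2 (left) and B6 (right). Bright blocks in both libraries include those of chromosome 11 from 40 to 100 kb, chromosome 9 up to 40 kb and the first block of chromosome 5.

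The excess of reads rested on a few chromosomes. Pooled over the edges, distinct reads per tested tile were 1.85 times the rest of the autosomes in B2 and 2.28 times in B6, a mean of 2.07 ± 0.304 (SD, n = 2). Each edge was also set against the rest of its own chromosome. The median chromosome then stood at 0.632 in B2 and 0.713 in B6, and 13 chromosomes in B2 and 12 in B6 lay below 1. Chromosome 11 alone accounted for 14355 (53.2%) of the edge total of B2 and for 2621 (43.9%) of that of B6. With its edge left out, the pooled edges stood at 0.956 times the rest of the autosomes in B2 and 1.41 times in B6. The 2 libraries therefore fell on opposite sides of 1 once that edge was removed.

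Chromosomes 11, 9 and 5 had the highest ratios of edge to rest. Chromosome 11 stood at 8.36 in B2 (interval from the edge counts, 8.22 to 8.49) and 8.24 in B6 (7.92 to 8.56), with overlapping intervals. Chromosome 9 stood at 2.59 in B2 (2.49 to 2.69) and 6.58 in B6 (6.20 to 6.97). Chromosome 5 stood at 2.16 in B2 (2.05 to 2.28) and 5.09 in B6 (4.68 to 5.53). In distinct reads the last 2 were thus higher in B6 than in B2 by more than counting error. Both edges had more duplicates in B2, 72.8% against 49.6% on chromosome 9 and 68.1% against 41.3% on chromosome 5. Ratios of all reads were not computed for single edges. Chromosome 4 also stood higher in B6, with 2.13 in B2 and 3.11 in B6.

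Per tested tile, the lowest ratios were on chromosomes 19 and 13 in both libraries and, in B2 only, on chromosome 14. Chromosome 19 held 85 distinct reads (B2) and 12 (B6), with ratios of 0.188 (0.1498 to 0.232) and 0.143 (0.0739 to 0.2498). Chromosome 13 held 111 and 18, with ratios of 0.204 (0.168 to 0.246) and 0.184 (0.109 to 0.291). Chromosome 14 held 4 reads in B2 and 5 in B6 over 14 tested tiles. Its ratios of 0.0885 (0.0241 to 0.227) and 0.630 (0.205 to 1.47) carry wide intervals, and in B6 the interval includes 1.

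**Figure D2:**
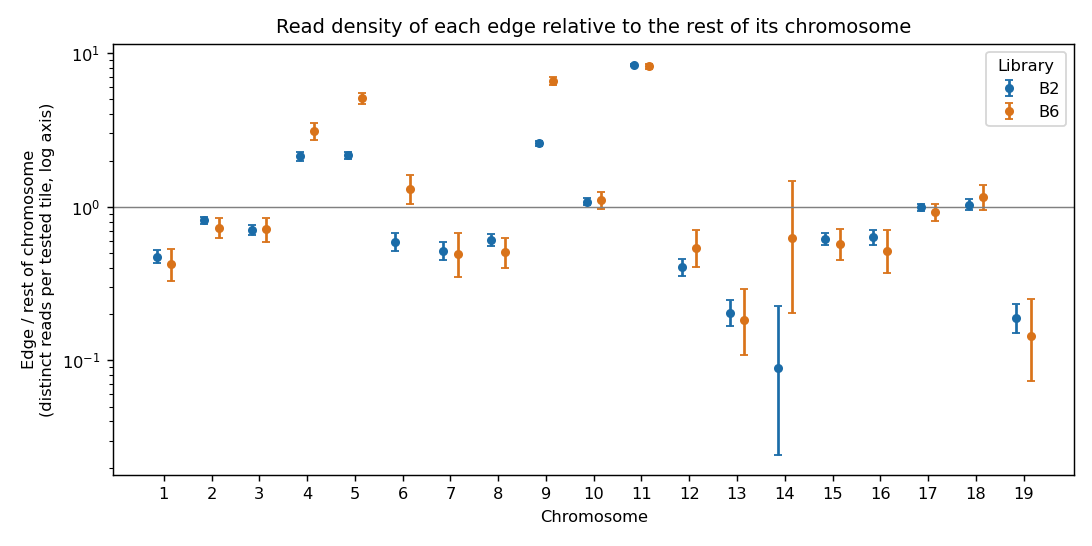
Distinct reads with 1 alignment per tested tile in each edge, divided by the same in the rest of that chromosome, on a log axis, with bars for the exact Poisson 95% interval of the edge count. Chromosome 11 lies near 8 in both libraries, chromosomes 4, 5 and 9 lie higher in B6 than in B2, and chromosomes 13 and 19 lie near or under 0.2 in both.

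On chromosome 11 the reads formed a broad block rather than separate peaks. Between 3040001 and 3100000, 60 kb in 120 tiles, B2 held 11128 distinct reads and B6 held 1811. The mean per tile was 92.7 in B2 and 15.1 in B6, 20.6 and 18.1 times the rest of chromosome 11, and only 1 tile in B2 and 2 in B6 were empty. Tiles of B2 ranged from 0 to 531 distinct reads with a median of 89, and tiles of B6 from 0 to 131 with a median of 13. In RPM the block was at 700.4 in B2. In B6 it was at 634, so that the ratio was 0.905. Duplicates made up 13.6% and 8.54%. From 3030001 to 3040000, in front of the block, the level was 12.1 times the rest of the chromosome in B2 and 7.44 times in B6. Beyond it, from 3100001 to 3160000, the level was 0.986 and 1.07 times the rest, close to the chromosome's own density.

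Other stretches of the chromosome 11 edge behaved differently between the libraries. The first 10 kb held 298 distinct reads in B2. B6 held 223 there, which put the ratio of B6 to B2 in RPM at 4.16. A cluster from 3188001 to 3194000, named after its values were seen, held 554 and 162 distinct reads over 12 tiles, with medians of 48 and 11.5 per tile and a ratio in RPM of 1.63. Within 1 edge the ratio of the libraries thus differed between the block and the part beside the gap.

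On chromosomes 9 and 5 most reads of the edge sat directly at the gap, with many duplicates. Chromosome 9 from 3000001 to 3040000 held 2276 distinct of 8969 reads in B2, with 74.6% duplicates, and 1090 of 2198 in B6, with 50.4% duplicates. In the 160 kb after that, B2 held 225 distinct reads and B6 held 34, and duplicates were 3.43% and 0%. By RPM of distinct reads, the B6 to B2 ratio was 2.66 in the dense part and 0.841 in the part after it. More duplicates were left out of B2 than of B6 in the dense part, so 2.66 is not the ratio of all reads. Chromosome 5 from 3000001 to 3010000 held 1236 distinct of 4103 reads in B2 and 544 of 938 in B6, with 69.9% and 42.0% duplicates. The remaining 190 kb of that edge held 108 and 16 distinct reads. The first tile of chromosome 5, 3000001 to 3000500, had the highest count of any edge tile in B6, 179 distinct reads, and 276 in B2. The next 4 tiles of chromosome 5 held 294, 241, 219 and 189 distinct reads in B2, and in B6 98, 127, 57 and 79.

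**Figure D3:**
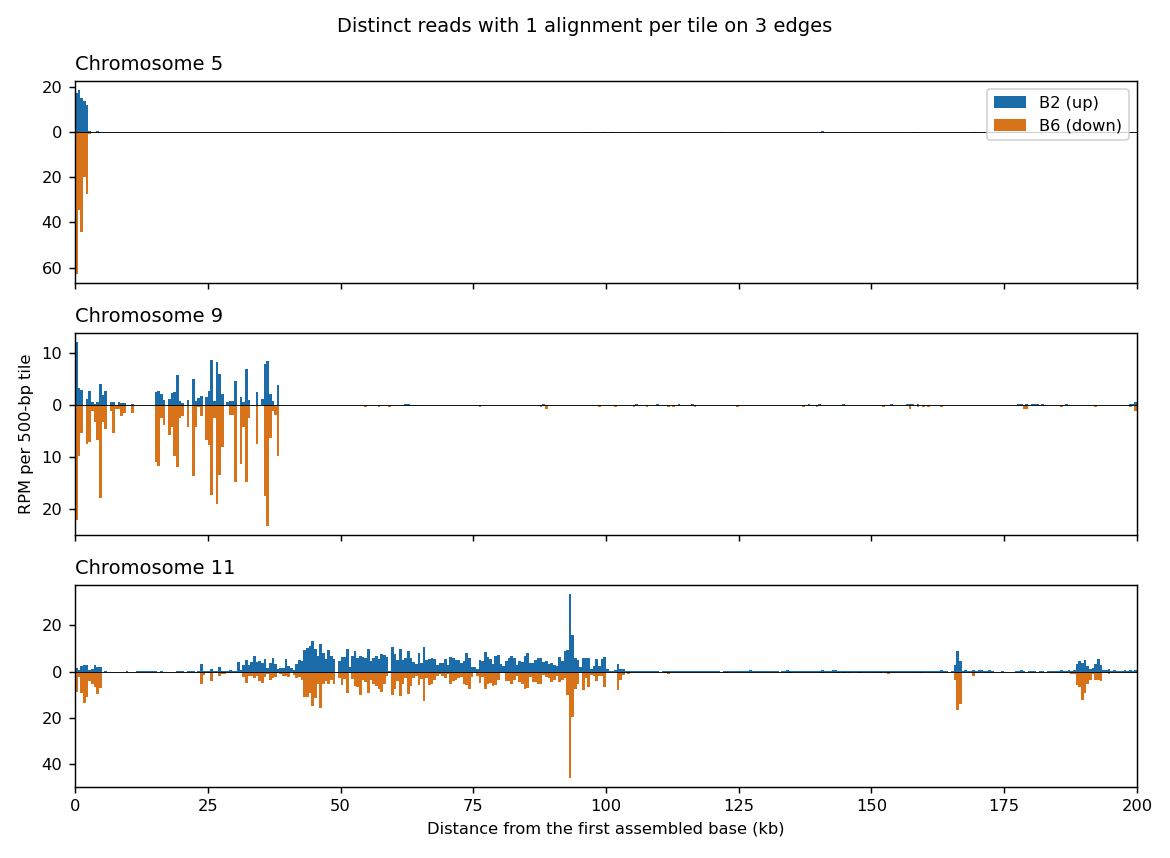
RPM of distinct reads with 1 alignment per 500-bp tile against the distance from the first assembled base in kb on chromosomes 5, 9 and 11, with B2 drawn upwards and B6 downwards on a linear axis. On chromosomes 5 and 9 the reads thin out after 10 and 40 kb from the gap, and those of chromosome 11 fill the block from 40 to 100 kb with 1 tall tile near 93 kb.

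Few edge tiles passed a test against their own surroundings. A tile was called enriched where distinct reads passed a one-sided Poisson test (p at most 1e-09), with at least 20% of reads on each strand. The test was against whichever was highest of 3 rates, over the genome, over 5 kb or over 10 kb centred on the tile. Both windows include the tile itself, so a dense tile raises its own expected rate. Its ratio to that rate understates its height over the neighbours. In both libraries 12 edge tiles of 4038 were called, or 0.297% (Wilson 95% interval 0.170 to 0.519), on 8 chromosomes, against 0.0986% of all 4532438 tested tiles. The local rates count untested tiles as empty, and these are more frequent in the edges, which can ease calls there. The next 200 kb gave 14 of 5660, or 0.247%, inside the interval of the edges. B2 on its own called 26 edge tiles, 0.644% against 0.242% of all tiles, and B6 called 14, 0.347% against 0.103%. Without chromosomes 9 and 11, 7 of 3402 tiles (0.206%) were called in both, a setting added after seeing the data.

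Against the genome-wide rate alone, without the local rates, many more edge tiles passed. In both libraries 135 did, 3.34% of those tested against 0.304% of all tiles. Chromosome 11 held 93 of them and chromosome 9 held 25. The other edges gave 17 of 3402 tiles, or 0.4997%. Most edge tiles that passed thus lay on chromosomes 11 and 9. The local rates include the tile itself, so the smaller number of calls with them does not measure the neighbours alone.

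The 12 called tiles formed 11 runs, of which the highest was on chromosome 11. At chr11:3093001-3093500 B2 held 531 distinct reads and B6 held 131, or 33.4 and 45.9 RPM, a mean of 39.6 ± 8.80 (SD, n = 2). Each tile offers 1000 signed positions, and this one had 53.1% of them taken in B2 and 13.1% in B6, so the distinct count in B2 no longer rises in step with the reads (811 in all). It rises out of the broad block, at 3.53 and 4.32 times the expected local rate, which includes the tile itself. The other run on chromosome 11, chr11:3166001-3167000, lay outside the block and held 212 and 87 distinct reads, or 13.3 and 30.5 RPM.

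The run on chromosome 10 and a run on chromosome 17 were supported by reads with 1 alignment only. At chr10:3134001-3134500 B2 held 91 distinct reads and B6 held 55, or 5.73 and 19.3 RPM. These counts were 5.11 and 7.75 times the local rate, which includes the tile itself. Duplicates there were 18.8% and 8.33%. At chr17:3071001-3071500 the counts were 60 and 30, with 7.69% and 11.8% duplicates. Together with the tile at 93 kb on chromosome 11, these were the 3 runs of 11 in which neither library listed a position with 2 alignments.

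In 5 runs the tile was called with reads of 2 alignments as well, so part of their reads also matched another place. These were chr4:3017001-3017500 (65 and 60 distinct reads with 1 alignment), chr9:3000001-3000500 (193 and 63), chr12:3110001-3110500 (72 and 32), chr17:3040501-3041000 (158 and 29) and chr18:3005501-3006000 (182 and 52). The run on chromosome 12 was the most duplicated, with 582 reads at 72 positions in B2 (87.6% duplicates) and 54 at 32 in B6 (40.7%). The run at 3040501 on chromosome 17 was the only one of the 11 at nearly the same RPM in both libraries, 9.95 and 10.2. The run on chromosome 4 stood at 4.09 RPM in B2 against 21.0 in B6, a ratio of 5.13. The remaining runs were chr9:3036001-3036500 (135 and 66), chr6:3151501-3152000 (26 and 25) and chr11:3166001-3167000 (212 and 87). They were not called with 2 alignments but listed such positions in at least 1 library. On chromosome 9 these were 32 in B2 and 31 in B6, and on chromosome 6 they were 68 and 39. On chromosome 11 they were 0 and 4. With 1 alignment, duplicates in B2 were 81.3% on chromosome 9 and 72.6% on chromosome 6. The run on chromosome 6 ranked outside the 10 highest runs that the naming rule takes and was added after its values were seen.

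All 11 runs had a B6 to B2 ratio in RPM above 1, from 1.02 to 5.35. The runs had to pass the call in B6, the library with fewer reads, so this direction is partly set by how they were chosen. The ratios leave out duplicates, which were more frequent in B2 than in B6 in every run except chr17:3071001-3071500 (7.69% against 11.8%). At chr12:3110001-3110500 they were 87.6% in B2 against 40.7% in B6, and at chr17:3040501-3041000 57.1% against 25.6%. Ratios of all reads were not computed for the runs, so the direction holds for distinct reads only. The direction also depends on the scaling by total distinct reads. Against the share of B6 in called tiles, a setting added after seeing the data, the ratios of the 11 runs fall by a factor of 2.16. Then 4 of them drop below 1, with a range from 0.473 to 2.48. The tiles behind that share also had to pass the call in B6.

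Read ends of the edges were often paired on the strands in a way that differs from a spread of fragments. In ChIP-seq, plus-strand and minus-strand ends mark opposite ends of fragments and stand about a fragment length apart. When plus and minus ends stand exactly 1 base less than the read length apart, the same window of bases has been read on both strands. For B2 that distance is 35 bp, for B6 25 bp. Of all plus ends in the edges, 19.1% in B2 (Wilson 95% interval 18.4 to 19.7) and 15.8% in B6 (14.5 to 17.1) had a minus end there. In the rest of the autosomes the shares were 1.51% and 1.16%.

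Dense tiles give such coincidences at any distance, so a distance of 95 bp was taken for comparison. It was set as a fragment-length distance, so ends of the same kind of fragment can add to its share. At 95 bp the shares in the edges were 8.66% in B2 and 2.96% in B6. In tiles of the rest of the autosomes called in both libraries, 20.8% and 11.8% of plus ends had a minus end at the read-length distance, about as many as at 95 bp (22.6% and 12.2%). The edges had more at the read-length distance than at 95 bp in both libraries. Called tiles of the rest had such an excess too among reads with 2 alignments, 48.9% against 29.99% in B2 and 33.8% against 17.8% in B6, so it is not particular to the edges.

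The read-length coincidence was concentrated on particular edges. On chromosome 9, 61.5% of plus ends in B2 and 47.1% in B6 had a partner at the read-length distance, against 7.02% and 1.24% at 95 bp. On chromosome 5 the shares were 62.5% and 41.2%, against 19.9% and 11.1%. Chromosomes 12 (25.0% and 42.3%) and 18 (27.0% and 20.5%) followed, the former with only 26 plus ends in B6. On chromosome 11 the shares were 15.1% and 4.08%, near those at 95 bp (12.3% and 2.91%). On chromosome 10 they were 1.14% and 1.60%, at the level of the rest of the autosomes.

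**Figure D4:**
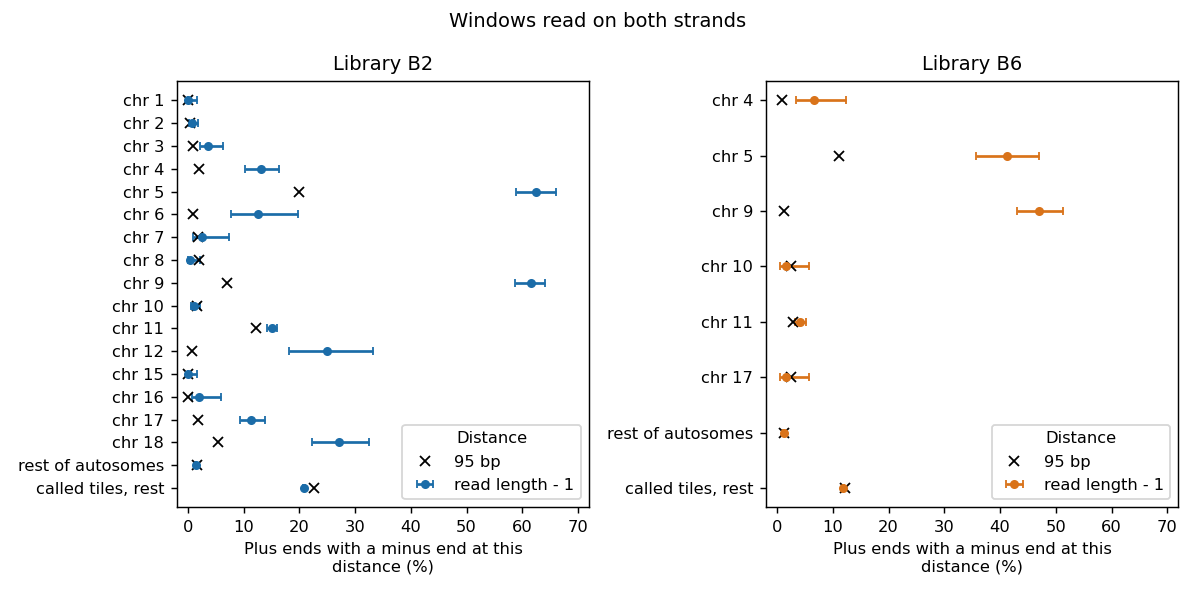
Share of plus-strand ends, in percent, with a minus-strand end at the read length minus 1 (circles, with Wilson 95% intervals) or at 95 bp (crosses), for each edge with at least 100 plus ends and for the rest of the autosomes and its called tiles. Chromosomes 5 and 9 stand apart with over 40% at the read-length distance in both libraries, while at 95 bp they stay under 20%.

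The called runs differed in the same way. At chr9:3036001-3036500 86.6% of plus ends in B2 and 51.4% in B6 had a partner at the read-length distance, and at chr12:3110001-3110500 80.6% and 64.3% did. At chr17:3040501-3041000 the share was 75.9% in B2, and 7.69% in B6, where there were 13 plus ends. At chr10:3134001-3134500 it was 5.77% and 8%. There the strands stood most often 77 bp apart in B2, and 125 bp apart in B6. Chromosome 11 at 3093001 gave 51.9% in B2 at the read-length distance and 54.0% at 95 bp, with no excess at the former. Over the edges with at least 100 ends on each strand, 16 in B2 and 6 in B6, the most frequent distance lay within 2 bp of the read length minus 1 in 11 of 22 cases. Spacings of plus ends between 50 and 600 bp were counted as well. On chromosome 11, with the most ends, the most frequent spacing in B2 was 55 bp and occurred 1.27 times as often as the median spacing. On chromosome 17 it was 170 bp (37 pairs against a median of 7) for B2. For B6 it was 174 bp (5 pairs against a median of 0).

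**Figure D5:**
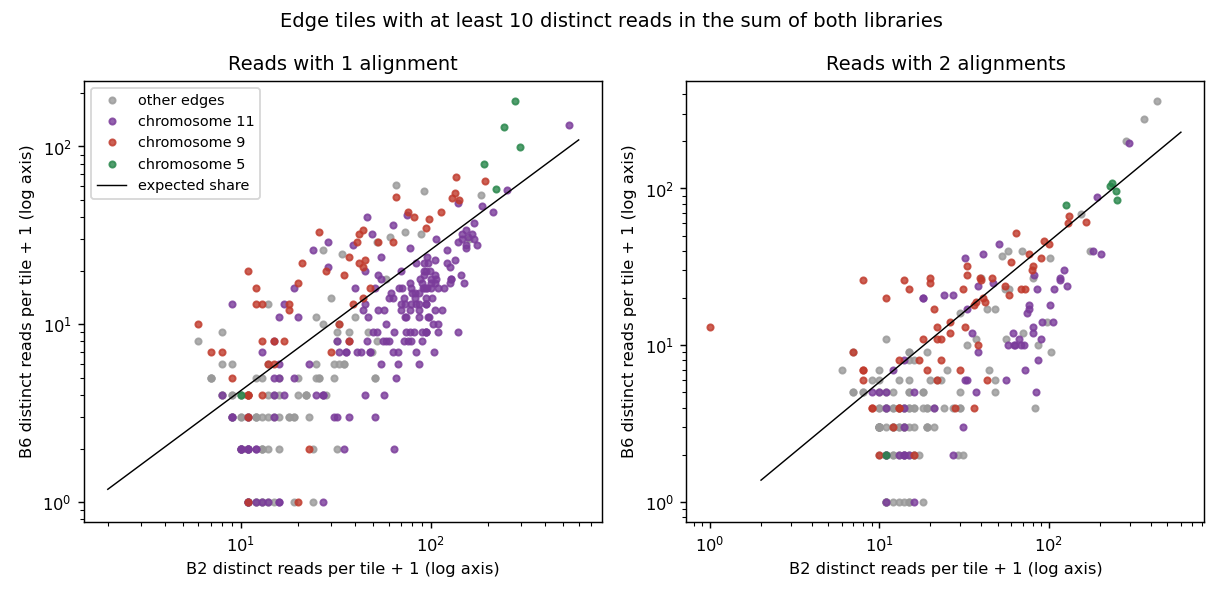
Distinct reads plus 1 per edge tile in B6 against B2, on log axes, for tiles with at least 10 distinct reads in the sum of both libraries, with 1 alignment (left) and 2 alignments (right), and a line at the expected share of B6. Tiles of chromosome 9 lie mostly above the line, and the many tiles of chromosome 11 lie mostly on or below it.

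The libraries shared the edge reads unequally, with most differing tiles higher in B6 when set against its share over all tiles. Each tile with at least 10 distinct reads in the sum was tested with a two-sided exact binomial test against the share of B6 over all tested tiles, 15.2%, with Benjamini-Hochberg adjustment over 249054 tiles and a threshold of 0.05. The edges as a whole had a B6 share of 18.1%. Of 355 edge tiles tested, 58 (16.3%) differed, of which 56 were higher in B6, against 1.91% of all tiles, and 2 were lower, against 0.000803%. This contrast depends on the number of reads per tile. With at least 20 reads in the sum, 65 of 254 edge tiles (25.6%) differed, against 15.8% of all such tiles. Of these 65, 61 were higher in B6. Chromosome 9 gave 30 of the higher tiles, with a median ratio of 3.33, and chromosome 11 gave 12, with a median of 4.07. The 2 lower tiles, both on chromosome 11, were the only ones called lower among all tiles tested. At an expected share of 15.2%, a tile with few reads could not be called lower, even without any read in B6. Only dense tiles could be, so the split of 56 and 2 is partly set by the test.

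The tiles with the largest differences lay on chromosomes 9 and 11. At chr9:3004001-3004500 B2 held 10 distinct reads and B6 held 19, a ratio relative to the expected share of 10.6 (interval 4.68 to 25.4, adjusted p = 7.55e-07 by the exact binomial test). At chr9:3003501-3004000 the counts were 5 and 9, a ratio of 10.01 (3.01 to 38.0). At chr11:3002501-3003000 they were 8 and 12, a ratio of 8.34 (3.14 to 23.5). In the other direction chr11:3030501-3031000 held 63 and 1, a ratio of 0.0883 (0.00220 to 0.510), and chr11:3092001-3092500 held 138 and 8, a ratio of 0.322 (0.136 to 0.653). The last tile ends 500 bp before the highest tile of the edges, at 3093001.

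The split between higher and lower depended on the scaling. In tiles called in both libraries B6 held 27.9% of the distinct reads, against 15.2% over all tested tiles, a shift of 1.11 in log2 of B6 over B2. B6 called 4647 tiles and B2 10959, and 4470 were called in both. The share of 27.9% is thus partly set by the choice of tiles that passed in B6, and is no neutral reference. Against 27.9%, 36 edge tiles differed, 3 higher and 33 lower in B6, and all 33 lower tiles were on chromosome 11. With all reads kept, 46 differed, 35 higher and 11 lower. The ratios in RPM given above scale by the same totals as the share of 15.2%. Against 27.9% the ratio of 0.905 in the block of chromosome 11 became 0.420. The ratio of 2.66 in the dense part of chromosome 9 became 1.24. Both were divided by the same factor, so their order could not change. Over the 4038 edge tiles, log2 of RPM plus 0.5 correlated between libraries with Pearson's r of 0.837 and Spearman's rho of 0.430, a description across tiles that share libraries and neighbours. Without chromosomes 9 and 11, r was 0.640 and rho 0.297 over 3402 tiles.

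Reads with 2 alignments were relatively more frequent at the edges than reads with 1. The lists give such a read at each of its places, so its counts are of positions and do not tell which copy it came from. The edges held 15298 such distinct positions in B2 and 5068 in B6, 5.57 and 4.83 times the rest of the autosomes per tested tile. Without chromosome 11 the ratios were 4.40 and 3.99. The median chromosome stood much lower, at 1.89 in B2 and 1.09 in B6, with 4 and 7 of the 19 edges below 1, so this excess too rested on a few edges. By chromosome, the highest ratios were on chromosome 11 (22.1 in B2 and 15.004 in B6), chromosome 9 (14.6 and 15.8) and chromosome 6 (7.43 and 12.3). Chromosomes 1 (0.621 and 0.511) and 2 (0.690 and 0.612) were among the lowest, and in B6 chromosome 14, with 5 positions, was at 0.331. Duplicates made up 46.7% and 34.2%, against 14.2% and 9.09% in the rest.

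With 2 alignments, 16 edge tiles of 3388 were called in both libraries, or 0.472% (Wilson 95% interval 0.291 to 0.766), against 0.0258% of all tiles and 3 of 2758 (0.109%) in the next 200 kb. The edges thus held more called tiles than the next 200 kb for this class of reads. Chromosome 9 alone gave 5 of the 16. The interval takes tiles as independent, but neighbouring tiles are not, and some called tiles list the same reads at both places. Whether the edges differ from the next 200 kb beyond these libraries was not tested. Against the genome-wide rate alone, 96 passed, 37 on chromosome 11 and 36 on chromosome 9, or 2.83% against 0.0738% of all tiles.

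The fullest tiles of this class were on chromosomes 6, 17, 11 and 5. At chr6:3151001-3151500 B2 listed 431 distinct positions and B6 listed 360, and at chr6:3150501-3151000 364 and 277. These 2 tiles form 1 run, with 39.8% of its signed positions taken in B2 and 31.9% in B6, and 3744 and 1659 reads in all. At chr17:3040501-3041000 the counts were 283 and 199, at chr11:3023501-3024000 297 and 195, and at chr5:3001001-3001500 234 and 107. The tiles on chromosome 6 had few reads with 1 alignment, 13 and 7 in B2. In the tile on chromosome 5 they were about as many as those with 2, 241 in B2 and 127 in B6.

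The share of B6 among positions with 2 alignments differed in both directions. Of 261 edge tiles tested, 36 differed from the expected 27.5%. In 17 the share was higher in B6, against 1.54% of all 11507 tiles tested, and in 19 it was lower, against 0.669%. Chromosome 9 gave 9 of the higher tiles and chromosome 11 gave 13 of the lower. The most extreme higher tile was chr9:3003501-3004000, with 0 positions in B2 and 12 in B6, the tile that also had the second highest ratio with 1 alignment. It was followed by chr9:3031001-3031500 (7 and 25, ratio 9.42) and chr9:3027501-3028000 (13 and 25, ratio 5.07). The lowest were chr16:3138501-3139000 (30 and 1, ratio 0.0879), chr17:3036501-3037000 (82 and 3, ratio 0.0965) and chr11:3028001-3028500 (83 and 4, ratio 0.127).

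The second place of these reads was looked for by the pattern of their ends. Of 30 edge tiles called in B2 with at least 50 ends, 12 shared at least 70% of the ends of both places with 1 other stretch at a constant distance, a threshold chosen after the values were seen. In 8 of the 12 the other stretch lay within an edge, and these 8 are both sides of the same matches. For the remaining 18 the best other stretch shared 16.3 to 69.1%.

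The clearest pairs joined different chromosomes. The tile chr6:3151001-3151500 shared 99.5% of ends in B2 and 99.2% in B6 with chr17:39454965-39455464, in the same orientation. The neighbouring tile chr6:3150501-3151000 shared 76.1% with chr17:39454465-39454964. The tile chr11:3041501-3042000, inside the broad block, shared 100% of its ends in both libraries with chr5:33041568-33042067 in inverted orientation.

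Edges of 2 chromosomes also matched each other. On chromosome 11 the tiles starting at 3023501, 3024001 and 3025501 shared 79.2%, 77.1% and 81.8% of ends in B2 with the edge of chromosome 17, at 3040577, 3040077 and 3038985, in inverted orientation. The called run at chr17:3040501-3041000 is the counterpart of the first, so these entries list the same reads at both places. On chromosome 9 the tile at 3009501 shared 85.9% with the stretch at 3012954, 3453 bp away. On chromosome 16 the tile at 3121001 shared 84.3% with the stretch at 3260856, outside the edge and 139855 bp away, in inverted orientation.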

How the data were processed

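The members and the lists here were chosen with earlier results of these data known. The deposited files list alignments as signed positions on mouse build mm8, so their values are of a kind other than a count or a level, per the file headers. The authors aligned with Bowtie, per the submitters' processing notes and the file headers. Its version was not given in the sources used here. Per the file headers its settings were -e 70, -k 2, -m 2 and -n 2, with -l at 36 in B2 and at 26 in B6. Because of -m 2, a read that matched in over 2 places is not listed, so much repeat sequence cannot appear. Position and read length reached 16299 at most on chromosome M in both libraries, which checked that a position is the leftmost base counted from 0. Positions are printed here counted from 1.

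From these positions, the 5' end of each read was assigned to a 500-bp tile in Python 3.11.15 (pandas 2.3.3, NumPy 2.4.6, SciPy 1.17.1). Figures used matplotlib 3.10.9. Tests were fitted on all tested tiles of chromosomes 1 to 19, X and Y. Called tiles with gaps of at most 1 tile were merged into runs. The scripts were tested on simulated data. No genome or annotation of mm8 was at hand, so neither sequences nor gene names are given. B2 held 16848742 reads with 1 alignment and B6 held 3106240, so weak enrichment that B6 misses is not shown to be absent. The RPM of positions with 2 alignments used the totals of reads with 1.

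Named were the 10 runs with the highest mean RPM per tile and the 3 longest, the 3 tiles with the largest difference in each direction, the first tiles as a group, the chromosomes with the 3 highest and 3 lowest ratios, and the 5 tiles with the most positions of 2 alignments. Alternatives were all reads kept, other p thresholds, background rates, tile widths and offsets, ends moved 60 bp, no strand rule, other reference stretches, other expected shares and each library left out. Leaving out chromosomes was chosen after seeing the data, as were leaving out a library for duplicates, distances between strands and reads with 2 alignments, the other settings for reads with 2 alignments and the rescaled ratios of runs.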

Additional observations from a re-analysis of the deposited data

How the results depend on the processing

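Tiles called in both libraries (12) numbered 23 with all reads kept, 25 at p of at most 1e-6, 135 with the genome-wide rate alone, 23 with reads of 1 or 2 alignments and 7 without chromosomes 9 and 11, and 14 to 26 with 1 library left out. Under the same first 4 settings B2 (26) gave 43, 50, 230 and 45, and B6 (14) gave 23, 26, 147 and 23. Tiles with a different library share (58) numbered 36 with the expected share of called tiles and 14 without chromosomes 9 and 11. The pooled density ratio (2.07) was 2.71 with all reads kept, 1.22 over all tiles, 3.95 in the first 100 kb, 2.48 with reads of 1 or 2 alignments and 1.20 when chromosome 11 was left out of edges and reference alike. Without chromosomes 9 and 11 it fell below 1, to 0.932. For the median chromosome (0.673) the same first 4 settings gave 0.759, 0.405, 0.437 and 0.987, and with the next 200 kb as reference it rose above 1, to 1.05. Edges with a strand distance near the read length (11 of 22) numbered 3 to 8 with 1 library left out, when fewer edges were compared. Tiles called with 2 alignments (16) numbered 96 with the genome-wide rate alone and 16 to 35 with 1 library left out. The genome-wide rate alone is by construction never above the rate used in the calls. For what else moved, the cause was not tested. The other 38 values stayed within 1.5 times for counts, or within the spread between libraries. Among them, values of density, duplicates and empty tiles with 1 library left out could not fall outside that spread, by construction. No paired analysis was possible because the replicate numbers come from deposit order and there is 1 group.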

Other observations

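Chromosome X, which is no autosome, was read over the same first 200 kb. With 1 alignment its edge held 7 distinct reads (B2) and 3 (B6), over 20 tested tiles, 0.241 and 0.555 times the rest of X. With 2 alignments it listed 37 positions in B2 and 10 in B6, 0.687 and 0.527 times the rest. No tile was called in either library by the Poisson test, and no tile held more than 1 distinct read with 1 alignment.

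The share of empty tiles in the 19 edges varied with the distance from the gap. In B2 it was 68.4% in the first 10 kb, 75% from 20 to 30 kb and 47.9% in the last 10 kb. Without chromosomes 9 and 11, the mean number of distinct reads per tile in B2 was 6.08 in the first 10 kb, 0.409 from 20 to 30 kb and 1.53 in the last 10 kb. Chromosome 5 held 1236 of the 2067 reads of that first block. The median over the 19 chromosomes in B2 was 0.4 per tile in the first 10 kb, 0.05 from 20 to 30 kb and 0.9 in the last 10 kb. By this median the first block stood above the block from 20 to 30 kb and below the last. With 2 alignments the median in B2 was 0.75 in the first 10 kb, the highest of all blocks, and 0.35 in the last.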
